A study of Gallus gallus with 14 samples.

Results

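The genes described here are those of the chicken Z chromosome: every row of the deposited table on the sequence that carries HMGCS1, other than rows annotated only as noncoding RNA. They are 694 of the 18631 genes listed. Of these, 639 are annotated as coding genes, 51 as coding genes with further RNA forms and 4 as miscellaneous RNA, and they lie between positions 2467 and 82223043 of the sequence (positions as deposited, build GRCg6a). Levels are in CPM, the reads of a gene scaled to a fixed library total. A test required 0.5 CPM, computed on the column sum, in 5 libraries or more. That filter kept 606 of the 694 Z genes, and the 88 left out had means of at most 0.128 CPM.

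The libraries were made from retinal total RNA of wild type White Leghorn chickens, with ribosomal RNA depleted. All carry the age label postnatal day 3. The treatment text puts the fitting of the lens at 3 days of age and its wear at 3 days, so the label may give the age at fitting and not that of the retinas. In the lens group (7 libraries) the lens was of -10 D, a treatment that places the image behind the retina, and the other 7 libraries are control retinas. Sex is not among the labels: libraries with more than 50 CPM of HINTW, a gene of the female-specific W chromosome, were taken as female and the rest as male. HINTW was 116.8 CPM in the lowest female library and 0.549 CPM in the highest male library. This gave 5 female libraries (control 2, 3, 4 and 7 and lens 4) and 9 male libraries (control 1, 5 and 6 and lens 1, 2, 3, 5, 6 and 7), so that females were 4 of the 7 controls and 1 of the 7 lens libraries. The sexes were therefore compared with the treatment label as a term.

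In birds the male carries a pair of Z chromosomes and the female carries a Z and a W. Birds have no known counterpart of the mammalian process that silences an entire X chromosome, and the output of the Z in females is known to be raised gene by gene and in part. The chicken Z also holds a region named for its methylation in males, from which females transcribe noncoding RNA. For a gene with no adjustment, a copy number of 1 against 2 would give a female minus male difference of -1 on the log2 scale.

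Each library held 30.84 to 41.41 M reads as implied by the step worth a single read, of which the listed genes took 9.678 to 13.8 M. A count of 0 allows a level of up to 0.07244 to 0.09727 CPM (3 counts), which covers counting error alone. No label states that samples came from separate birds, so p-values measure the spread between samples. Summed retinal markers overlapped between the sexes: Müller glia markers were 472 to 658 CPM in female and 516 to 621 CPM in male libraries, and photoreceptor markers 627 to 1117 and 709 to 1097 CPM. Of the markers listed, only GUCA1A passed the test, with 45.2 CPM in females and 47.5 CPM in males (-0.33 with the treatment term, adjusted p = 0.0353, limma). Pigment epithelium markers ranged from 5.38 to 10.5 CPM in females and 3.99 to 10.8 CPM in males, lens markers from 2.68 to 4.10 and 2.69 to 3.96 CPM, and muscle markers stayed at or below 0.340 CPM. The part of such cells in the results was not tested.

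Most Z genes were lower in female retina, and by less than their copy number. Of the 606 tested, 324 were lower in females (53.5%), 4 were higher and 278 passed in neither direction, at an adjusted p under 0.05 (limma on log2(CPM + 1), two-sided). Over all genes tested the share called was 2.91%, with 2.43% called lower, and over autosomal genes 0.0792% were called lower. Z genes made up 91.0% of all genes called lower. The median difference of the Z genes was -0.38 on the log2 scale, the central 50% lay between -0.57 and -0.18, and the extremes were -1.0 and 0.70. The median autosomal gene stood at 0.03, which puts the Z median 0.41 below it. In plain levels, the median Z gene had a female mean at 71.5% of its male mean, while the median autosomal gene stood at 104.4%. Percentages of male levels, here and below, are ratios of means without the treatment term. The sexes were unevenly spread over the treatment groups.

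The direction did not rest on the called genes alone, since 545 of the 606 Z genes (89.9%) had a negative difference against 38.5% of autosomal genes. In 292 Z genes (48.2%) every female library lay below every male library, which was the case for 2.11% of all genes tested and for 1 autosomal gene (0.0072%). Because the filter can be met by male libraries alone, the 568 Z genes that reached it in all 14 libraries were also examined: 319 of them were lower in females and their median was -0.39. Another 4 tested genes reached it in no female library. In whole retina, fewer cells of a type and less RNA per cell cannot be told apart.

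Every library could be placed by its Z genes. As the median deviation of the 606 genes from their 14-library means, relative to that of autosomal genes, female control 2 was at -0.35, control 3 at -0.24, control 4 at -0.25, control 7 at -0.28 and lens 4 at -0.21 (mean -0.27 ± 0.051, SD, n = 5). Male libraries lay between 0.12 and 0.19 (mean 0.16 ± 0.026, SD, n = 9), with control 1 at 0.13, control 5 at 0.19, control 6 at 0.12 and the 6 lens libraries from 0.12 to 0.19. The sexes did not overlap on this scale, and the male control and male lens libraries did. As a sum of CPM, the Z genes amounted to 4.32% ± 0.152 of the autosomal sum in females (4.10% to 4.48%) and 5.93% ± 0.132 in males (5.73% to 6.09%). These are descriptions of the libraries and take no test, since libraries were ordered by many genes at once.

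**Figure D1:**
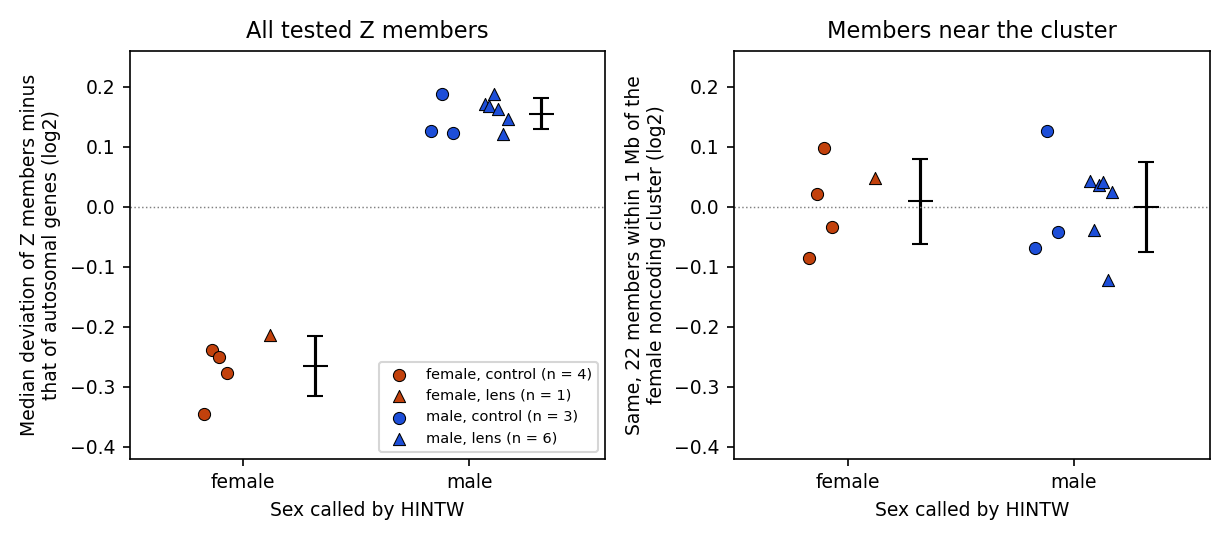
Each point is a library, with sex on the x axis and, on the y axis, the median deviation of Z genes from their 14-library means minus that of autosomal genes (log2); bars are the mean and SD. Over all 606 tested genes (left) the 5 female libraries lie at -0.35 to -0.21 and the 9 male libraries at 0.12 to 0.19, while over the 22 genes within 1 Mb of the female noncoding cluster (right) the sexes overlap.

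The largest falls came close to the copy number itself. RPS23, a protein of the small ribosomal subunit, had 16.9, 15.6, 12.3, 14.01 and 11.4 CPM in female control 2, 3, 4 and 7 and lens 4, and 20.7 to 36.7 CPM in males (median 28.0). No female library reached the lowest male, and the difference was -1.0 (SE 0.14, adjusted p = 1.01e-04, limma). ATP5A1Z, the alpha subunit of the mitochondrial ATP synthase, had 25.8, 31.2, 29.1, 26.9 and 25.3 CPM in the same order and 46.9 to 60.5 CPM in males (median 53.8), a difference of -0.98 (adjusted p = 9.6e-08, limma). NXNL2, a thioredoxin-like factor of photoreceptors, had 33.1, 29.3, 27.8, 26.98 and 24.3 CPM against 51.6 to 60.8 CPM in males (median 55.6). Its difference was also -0.98, and again the highest female library lay below the lowest male. The next in size were CHRNA6, a nicotinic acetylcholine receptor subunit (15.5 against 30.2 CPM, -0.94), ERCC8, of nucleotide excision repair (9.36 against 18.5 CPM, -0.93), NDUFS4, of respiratory complex I (8.52 against 16.9 CPM, -0.93), SPIN1Z, a reader of histone methylation (36.1 against 69.0 CPM, -0.92), COX7C, of cytochrome c oxidase (7.49 against 15.5 CPM, -0.91), FAM172A (10.8 against 20.6 CPM, -0.90) and LYRM7, an assembly factor of complex III (2.84 against 6.05 CPM, -0.90). In all of them the sexes were fully separated, as in 48.2% of all tested Z genes. They were picked as the largest falls among the genes called, so this was nearly fixed in advance.

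At the other end many Z genes had a difference near zero. A difference within 0.25 of zero in either direction was found for 189 of the 606, and one below -0.5 for 197, with 34 at -0.8 or lower. The log2(CPM + 1) scale understates low genes, so a difference near zero need not mean equal levels. The 202 genes with the lowest levels had a median of -0.23, with females at 71.5% of males. The spread among Z genes was wider than among autosomal genes of like level: over the 313 Z genes with a mean of at least 10 CPM on the column sum the SD of the differences was 0.275, against 0.109 over 5133 autosomal genes, and the median SE of those Z genes was 0.072. Their median was -0.44 and 290 of the 313 were below zero. On this scale the same relative fall gives differences that vary with level, and its part in the wider spread was not tested.

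Z genes kept much of their order of differences in separate sets of libraries. Computed once in the controls (4 females, 3 males) and once in the lens libraries (1 female, 6 males), which share no library, the differences of the 606 genes had a Pearson correlation of 0.74 and a Spearman correlation of 0.74, against 0.036 and 0.008 over 13881 autosomal genes. These correlations are across genes, which are not independent replicates, and the value of a gene also depends on its level on this scale. Over the 313 Z genes with higher levels they were 0.78 and 0.79. The sign was shared by 88.6% of Z genes and by 48.1% of autosomal genes. Since 89.9% of Z genes had a negative difference over all libraries, a shared sign mostly follows from that shift and says little of their order. The controls alone called 214 Z genes lower and 3 higher, where 1.59% of all genes tested were called lower, and the lens libraries alone called 135 lower and 1 higher (0.982%, with the single female library assumed to vary like the males). With a sex by treatment term, 0 of 14664 genes passed (limma), and 37 Z genes did at an unadjusted p under 0.05 (6.11%, against 6.66% of all genes tested).

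Along the chromosome, lower expression in females reached from end to end, with an exception between 25 and 30 Mb. In bins of 10 Mb the median difference was -0.27 over 94 genes in the bin at the start of the sequence, -0.39 (89 genes), -0.28 (92 genes), -0.38 (61 genes), -0.41 (67 genes), -0.43 (81 genes), -0.44 (64 genes), -0.37 (42 genes) and -0.51 in the last bin, which held 16 genes. Every bin lay below the 108 autosomal bins of the same length with at least 16 genes, which ran from -0.02 to 0.08. The share called lower was 42.6% in the starting bin, 40.2% between 20 and 30 Mb and 64.2% between 40 and 50 Mb. The bin from 20 to 30 Mb held 3 of the 4 genes called higher and had 23 of its 92 genes (25%) above zero.

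**Figure D2:**
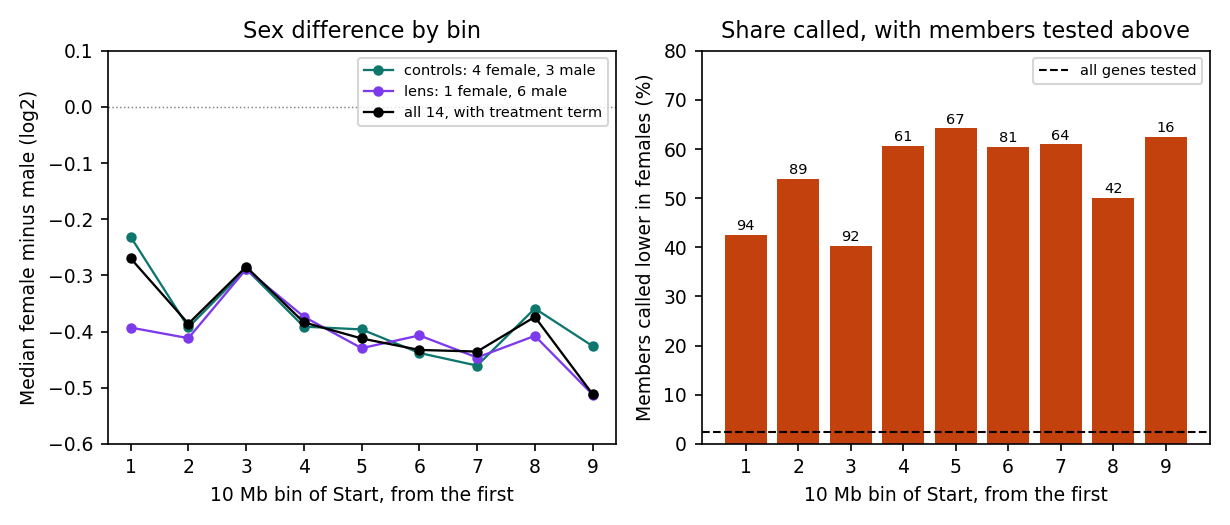
Left, the median female minus male difference (log2) of Z genes in 10 Mb bins, for all 14 libraries and for control and lens libraries apart; right, the share of tested genes called lower in females, with the number tested above each bar and the 2.43% of all genes as a dashed line. Medians of all libraries lie between -0.51 and -0.27, and the bin at the start of the sequence is where the sets differ by most, with -0.23 in controls and -0.39 in lens libraries.

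The gene with the smallest p-value in each 10 Mb bin, which is seldom the largest fall there, was lower in every bin. With 324 of the 606 tested genes called lower and 4 higher, this direction was nearly fixed in advance, and the genes are given as examples. PIK3C3, the lipid kinase of autophagy, was at -0.73 near the start (18.5 against 32.1 CPM). TARS, the threonyl-tRNA synthetase at 10.1 Mb, had 16.4, 20.1, 18.8, 18.8 and 18.5 CPM in females against 32.5 to 36.1 CPM in males, and was at -0.88 (adjusted p = 8.29e-09, limma). PTPRD, a receptor phosphatase of synapses, had 228, 218, 237, 229.6 and 226 CPM in females and 304 to 349 CPM in males (-0.51, adjusted p = 9.99e-07, limma), so that its lowest male library was well above its highest female. Further along, ZFAND5 was at -0.86, SPIN1Z at -0.92, PIGG, of glycolipid anchor synthesis, at -0.85 (31.7 against 57.0 CPM), TMEM167A at -0.73, the zinc finger gene ZNF608 at -0.54 (114 against 169 CPM) and the sorting nexin SNX24 at -0.75. SPIN1Z had the smallest adjusted p of these, 1.22e-09 (limma), and its female libraries lay between 33.1 and 38.4 CPM against 64.7 to 74.5 CPM in males.

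The lowest stretch lay past the middle. The median of 25 neighbouring genes was lowest, at -0.70, from 58.0 to 63.6 Mb. There 20 of the 25 were called lower and 0 higher, against 53.5% lower over all tested Z genes. The stretch was picked as the lowest of all such windows, so a high count was bound to be found. Females stood at 60.2% of males there by the median, and the medians were -0.62 in controls and -0.65 in lens libraries. It ends at RPS23 and contains FAM172A, COX7C and ADGRV1, an adhesion receptor of photoreceptors known from Usher syndrome, chosen here after its values were seen. ADGRV1 had 202, 198, 231, 218 and 239 CPM in females and 353 to 425 CPM in males (-0.79, adjusted p = 1.21e-08, limma). Within the same stretch NR2F1, an orphan nuclear receptor, was at -0.04 with the treatment term, although its female mean was above its male mean (5.52 against 5.01 CPM), and HAPLN1, a link protein of the matrix, at 0.10 (3.39 against 2.66 CPM), and neither passed. Apart from the stretch between 25 and 30 Mb, neighbours shared little: the correlation between the differences of adjacent Z genes was 0.11 over 605 pairs and 0.05 over the 542 pairs outside 25 to 35 Mb, against 0.07 for autosomal neighbours.

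**Figure D3:**
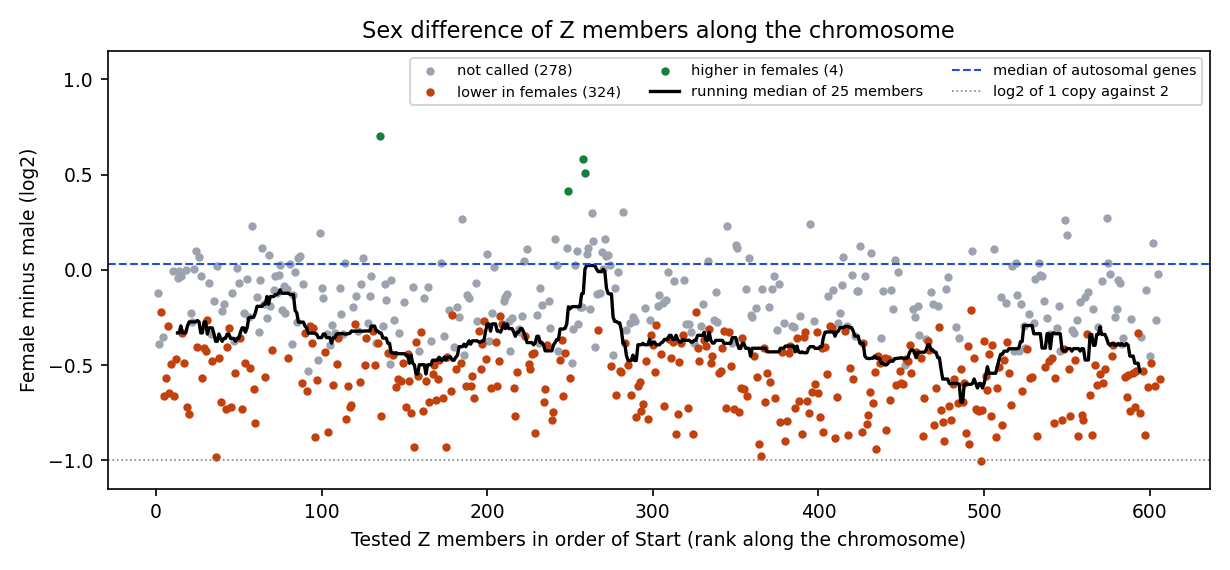
Female minus male difference (log2, y axis) of the 606 tested Z genes in order of their start (x axis, rank), coloured by call, with the running median of 25 genes in black and the autosomal median as a dashed line. The running median lies between -0.70 and -0.10 except around the peak near rank 260, where it reaches 0.02.

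The exception surrounds a cluster of noncoding RNA genes transcribed in females. Of the Z-linked noncoding rows, 10 were called higher in females, and they lay between 27178701 and 27398263, a span of 219.6 kb that holds 15 noncoding rows and 0 of the 694 genes described here. All 10 met the filter through the female libraries, 9 of them in no male library, so a difference was bound to be found and the values are given as a description. The most abundant, LOC100859072, had 57.2, 60.1, 77.8, 68.3 and 79.9 CPM in female control 2, 3, 4 and 7 and lens 4, and 0 to 0.284 CPM in males. LOC112530612 had 9.26 to 14.4 CPM in females and at most 0.0360 CPM in males, LOC112530611 had 9.41 to 12.1 and at most 0.0492 CPM, and LOC107052260 had 5.38 to 6.69 and at most 0.0262 CPM. Over the rows of the cluster 83.7% of the male values were 0. The files give these rows no other name. Outside the cluster 21 noncoding rows of the Z were called lower, which is 25.9% of the 81 tested on the whole chromosome. Those 81 include the 10 tested rows of the cluster, so the share outside it is higher. The share called lower was 53.5% over tested Z genes and 2.43% over all genes tested.

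Genes within 1 Mb of the cluster, from 26.3 to 28.4 Mb, stood around equality between the sexes. Of these 22, 1 was lower, 2 were higher and 19 passed in neither direction. Over all tested Z genes 53.5% were lower and 0.660% higher, and over all genes tested 2.43% and 0.477%. The median of the 22 was 0.05, with females at 103.7% of males. In controls alone the median was 0.03 and in lens libraries alone 0.04. Relative to autosomal genes the 22 stood at 0.01 ± 0.071 in female libraries (-0.08 to 0.10, SD, n = 5) and 0.00 ± 0.075 in male libraries (-0.12 to 0.13, SD, n = 9), so that the sexes overlapped. The median fell past 1 Mb: the 14 genes within 0.5 Mb had a median of 0.04 and the 8 from 0.5 to 1 Mb one of 0.05, but the 8 from 1 to 2 Mb were at -0.46, the 50 from 2 to 5 Mb at -0.36 and the 526 beyond at -0.39. The distance was set after the cluster had been located, and these medians take no test. The wider stretch planned for this region, genes starting from 25 to 35 Mb, held 63 tested genes. Of these 25 were lower (39.7%, against 53.5% of all tested Z genes) and 3 were higher, with a median of -0.28.

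SLC1A1, a neuronal glutamate transporter that ends 0.054 Mb before the cluster, was the Z gene called higher with the smallest p-value. It had 31.3, 33.4, 27.5, 29.4 and 29.6 CPM in female control 2, 3, 4 and 7 and lens 4, against 19.2 to 22.1 CPM in males (median 21.9). The sexes did not overlap, and the difference was 0.51 (SE 0.064, adjusted p = 2.98e-05, limma). GLIS3, a zinc finger transcription factor just before it, had 1.83, 1.97, 1.64, 1.51 and 2.27 CPM in females and 0.605 to 1.26 CPM in males (0.58, adjusted p = 0.0011, limma), and did not pass in the controls alone (adjusted p = 0.106, limma). PGM5, a phosphoglucomutase-like protein of cell junctions at 25.5 Mb, had 0.716 to 1.36 CPM in females and 0.357 to 0.535 CPM in males (0.41, adjusted p = 0.00593, limma), and likewise missed in controls alone (adjusted p = 0.127, limma). The percentage called higher was 0.660% over Z genes, 0.477% over all genes tested and 0.151% over autosomal genes. The genes called higher over all genes tested include 35 W-linked genes and 10 Z-linked noncoding rows.

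On the far side of the cluster values lay on either side of zero, from -0.40 to 0.30. JAK2, the cytokine receptor kinase, had 38.8, 48.9, 48.3, 49.5 and 56.5 CPM in females and 33.9 to 52.0 CPM in males; its 0.30 did not pass (adjusted p = 0.204, limma). CDC37L1 was at 0.09, AK3, a mitochondrial adenylate kinase, at 0.12, CD274, the immune ligand PD-L1, at 0.15, KIAA2026 at 0.09, UHRF2 at 0.16, GLDC, of glycine breakdown, at 0.07 and the histone demethylase KDM4C at 0.03, none of which passed. RCL1 at -0.21, ERMP1 at -0.12 and PDCD1LG2 at -0.13 did not pass either, nor did LOC112530672, which had the largest fall of the 22 genes (-0.40, 2.42 against 3.39 CPM, adjusted p = 0.311, limma). RIC1, a Golgi trafficking factor, was the gene called lower, at -0.31 (34.7 against 43.6 CPM, adjusted p = 0.00311, limma). Before the cluster SMARCA2, a chromatin remodelling ATPase, was at 0.02 and VLDLR, the lipoprotein and reelin receptor, at 0.10 (31.8 against 29.9 CPM), while the potassium channel subunit KCNV2 was at -0.29, PUM3 at -0.19 and RFX3 at -0.19. PTPRD, which begins at 28777855, was the next Z gene tested on the far side and was lower, as given above.

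**Figure D4:**
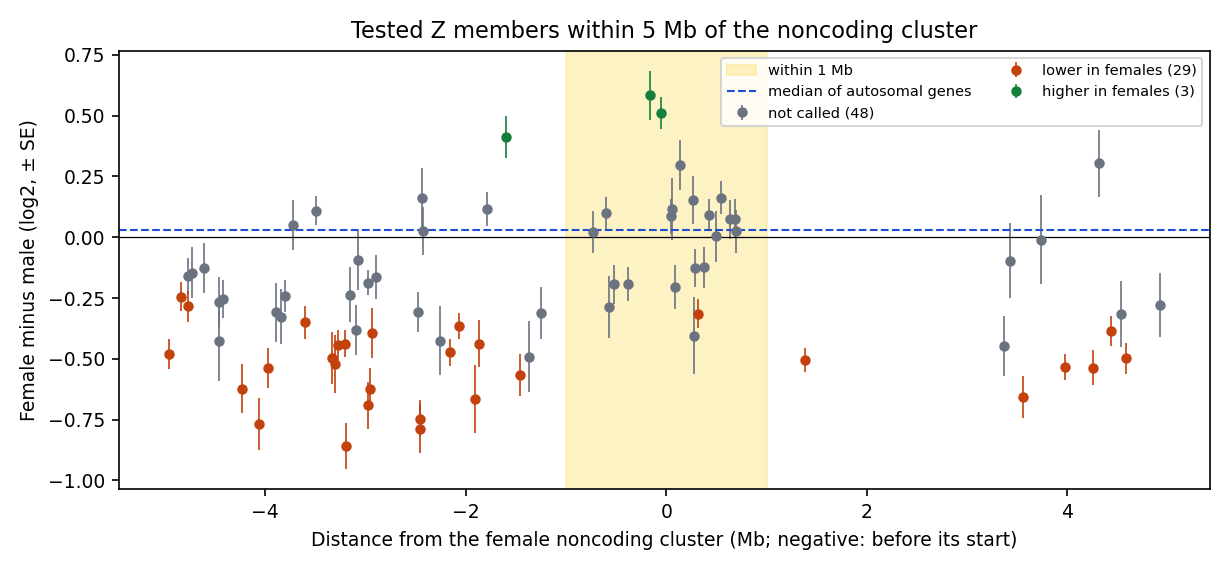
Female minus male difference (log2, y axis; bars are SE) of the tested Z genes within 5 Mb of the female noncoding cluster, against the distance from it (x axis, Mb). In the shaded 1 Mb on either side 1 gene is lower, 2 are higher and 19 pass in neither direction. Over all tested Z genes 53.5% are lower and 0.660% higher. Beyond the shaded part most genes lie below zero.

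Another stretch, from 8.13 to 9.28 Mb, reached -0.10 in the running median, the highest value away from the cluster. It differed between the sets: the median was 0.01 in controls and -0.34 in lens libraries, which hold a single female. Its 25 genes had a median level of 1.501 CPM against 10.7 CPM over all tested Z genes (CPM, not scaled to gene length). Of the 25, 3 were lower and 0 higher, against 53.5% lower over all tested Z genes, and the stretch was picked for its running median. The median ratio of means put females at 93.9% of males. It holds UNC13B, a priming factor of synaptic vesicles, at -0.42 (79.95 against 108 CPM, adjusted p = 3.11e-06, limma), and VCP, an ATPase of protein quality control, at -0.56.

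A lone gene outside all of these was higher in females by most. SELENOP1, a selenium-carrying plasma protein gene at 13.59 Mb, had 88.1, 96.0, 125, 99.2 and 109.9 CPM in females and 44.03 to 77.6 CPM in males (median 63.4). Every female library lay above every male library, and the difference was 0.70 (SE 0.12, adjusted p = 8.28e-04, limma). In 1 further Z gene, GOLM1, all female libraries were above all male libraries (6.87 against 5.33 CPM). Its 0.23 did not pass (adjusted p = 0.382, limma). Non-overlap in that direction occurred in 5 tested Z genes (0.825%) and in 0.151% of autosomal genes. Over all genes tested, W-linked genes included, it occurred in 0.484%.

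Z-encoded parts of the respiratory chain and the ribosome can be set beside their autosomal partners, against a background of 53.5% of all tested Z genes called lower. Of 5 respiratory chain genes on the Z all 5 were lower, with a median of -0.91 (-0.38 over all tested Z genes) and females at 51.1% of males, whereas 0 of 87 autosomal respiratory chain genes passed and their median was -0.02. These values are of Z rows alone: for ATP5A1Z the sum with its W row was at -0.32 (44.3 against 54.2 CPM). The group holds ATP5A1Z, NDUFS4, COX7C, ATP5I, the e subunit of the ATP synthase (9.91 against 19.3 CPM, -0.76), and NDUFAF2, an assembly factor of complex I and the smallest fall (2.26 against 3.66 CPM, -0.46). Of 4 ribosomal protein genes on the Z, 3 were lower: RPS23, RPS6 (78.3 against 141 CPM, -0.74) and RPL17 (-0.72). RPL17 is also on the list of genes with a W copy given below, and no W row was paired with it. RPL37 was at -0.28 and did not pass (9.19 against 11.4 CPM). None of 74 autosomal ribosomal protein genes passed, and their median was -0.01. The Z had 0 listed proteasome genes, and 0 of 38 on autosomes passed.

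Neuronal and synaptic genes of the Z were called about as often as the chromosome as a whole. Of 36 tested, 18 were lower (50%, against 53.5% of all tested Z genes), 1 was higher (SLC1A1) and 17 passed in neither direction, with a median of -0.29 against -0.38 over all tested Z genes. PTCH1, the hedgehog receptor, was at -0.63 (19.3 against 29.7 CPM) and NFIB, a nuclear factor of glia and late-born neurons, at -0.53 (48.7 against 72.1 CPM). SLC1A3, the glial glutamate transporter, stood at 0.04 with 286 ± 26.3 CPM in females (SD, n = 5) and 278 ± 24.1 CPM in males (SD, n = 9), and SV2C of synaptic vesicles at 0.11, and neither passed. Of the DM domain genes listed, DMRT2 was the Z gene present, and it was below the filter.

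Level mattered to the count of calls and less to the size. Split by mean level, 48 of the 202 genes with the lowest levels (0.137 to 4.11 CPM), 125 of the middle 202 and 151 of the highest 202 (20.1 to 580 CPM) were lower. Their medians were -0.23, -0.47 and -0.43 on the log2(CPM + 1) scale, which understates low genes, and females stood at 71.5%, 70.0% and 73.0% of males. Split by genomic length into 3 groups of 202, the medians were -0.38 in each, while the share called lower was 43.6%, 54.0% and 62.9% from the shortest genes to the longest. Females stood at 68.2%, 70.5% and 74.2% of males in that order.

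Z genes with a copy on the W were lower on the Z as well. Of 35 symbols on a list of such genes, 28 are Z genes here and 27 were tested: 24 were lower (88.9%, against 53.5% of all tested Z genes) and 0 higher, with a median of -0.57 against -0.38. The list was drawn up from general knowledge. Z and W rows were paired by symbol, where the W symbol is the stem of the Z symbol followed by W, L, L1 or B (HNRNPK with HNRNPKL, SMAD7 with SMAD7B). This gave 9 pairs, of which SMAD7 is not on the list, and W rows with other symbols, such as CHDB1, were left unpaired. In those 9 the Z row was lower in 8, with a median of -0.54, and SMAD7 was the exception (-0.27, adjusted p = 0.249, limma). The call of SMAD2Z (adjusted p = 0.0471, limma) was lost when any of control 1, 3, 4, 6 or 7 or lens 1, 3, 4 or 7 was left out (adjusted p 0.0571 to 0.309, limma). The W rows of these 9 pairs reached at most 0.162 CPM in any male library. How the authors' counting shared reads between near-identical copies is not given in the sources used here, so each row by itself is uncertain, and the sums of both rows were tested in a fit with all genes (2.83% called).

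With the W copy added, the 9 pairs fell into different classes. HNRNPK, an RNA-binding protein, had 114 CPM in both sexes (114.2 ± 7.33 in females, SD, n = 5, and 114.0 ± 5.42 in males, SD, n = 9), a difference of 0.00 with a 95% interval of -0.12 to 0.12. The sums of ATP5A1 and SPIN1 remained lower in females, at -0.32 (interval -0.49 to -0.15, adjusted p = 0.0216, limma; 44.3 against 54.2 CPM) and -0.30 (interval -0.41 to -0.18, adjusted p = 0.00158, limma; 55.8 against 69.0 CPM). For 4 genes the sum was higher in females. MIER3 had 36.4, 39.2, 39.3, 36.9 and 44.6 CPM in female control 2, 3, 4 and 7 and lens 4 against 24.4 to 29.1 CPM in males (0.56), and UBE2R2, a ubiquitin-conjugating enzyme, 18.4 against 10.5 CPM (0.64). SMAD2, a mediator of TGF-beta signals, had 24.1 against 11.2 CPM (1.09), and ST8SIA3, a sialyltransferase of neurons, 13.8 against 3.42 CPM (1.68, adjusted p = 1.65e-09, limma). ZFR (0.20, interval 0.08 to 0.33, adjusted p = 0.0763, limma) and SMAD7 (0.06, interval -0.15 to 0.28) passed in neither direction. The W row supplied between 24.1% (SMAD7) and 85.2% (ST8SIA3) of the female sum. CPM is not scaled to gene length, and annotated extents can differ within a pair. ST8SIA3Z runs from 435849 to 439873 and ST8SIA3W from 6538043 to 6552494. The part of length in the sums and W shares was not tested. HINT1Z, whose W counterpart HINTW was used to call sex, was lower on the Z at -0.79 (21.6 against 38.5 CPM, adjusted p = 8.36e-05, limma).

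**Figure D5:**
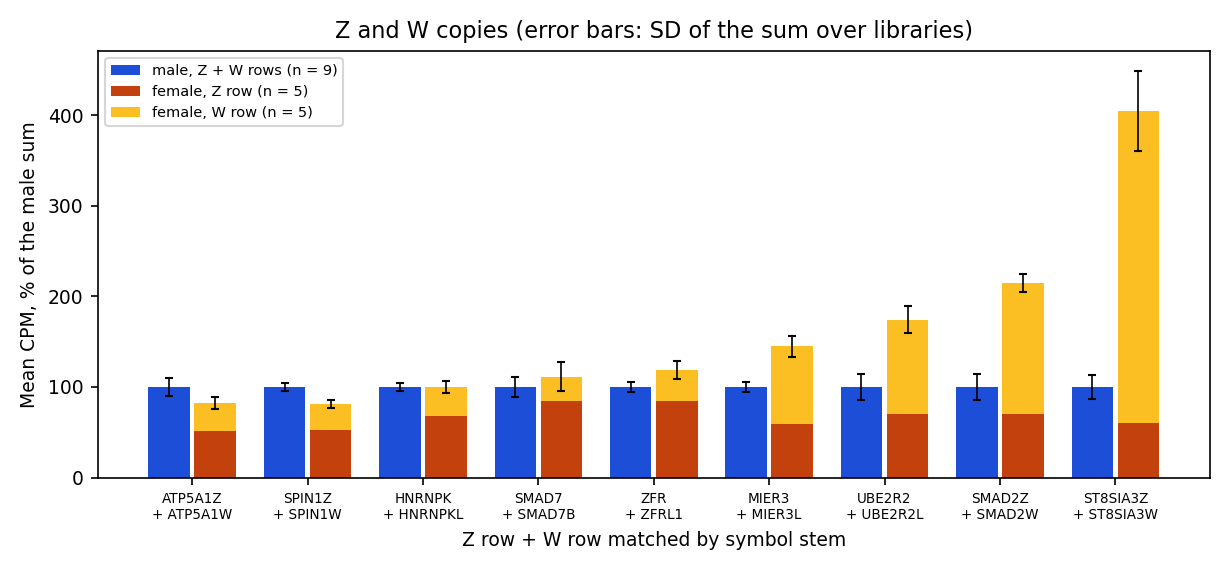
Mean CPM of 9 genes with a Z row and a W row paired by the stem of their symbols, as a percentage of the male sum (y axis, from 0), with the Z part and the W part of the female sum stacked; error bars are the SD of the sum over 5 female or 9 male libraries. The female sum runs from below the male level for ATP5A1 and SPIN1, through equality for HNRNPK, to well above it for SMAD2 and ST8SIA3. CPM is not scaled to gene length.

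With sex as a term, 1 Z gene passed between lens and control retinas. EFNA5, an ephrin ligand of retinal axon guidance at 48131935 to 48339031, was that gene, where 0.102% of all genes tested were called. It had 23.9, 24.7 and 23.1 CPM in male control 1, 5 and 6 and 15.3 to 17.8 CPM in the 6 male lens libraries, and 15.0 to 17.5 CPM in the 4 female controls and 14.4 CPM in female lens 4. Male controls stood apart from all other libraries. EFNA5 was also called lower in females (-0.41, adjusted p = 8.05e-04, limma), and the male controls were the high libraries for both calls. Its lens minus control difference was -0.38 (SE 0.067, adjusted p = 0.0361, limma), and the call was lost (0 Z genes) when any of control 1, 3, 5, 6 or 7 or lens 1, 2, 3, 4 or 5 was left out. At an unadjusted p under 0.05, 66 Z genes passed (10.9%), close to the 11.1% of all genes tested. The Z median lay 0.03 above the autosomal median, and 0.21 above it when the sex term was left out, with 6 of 7 lens libraries and 3 of 7 control libraries being male.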

How the data were processed

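Per the labels, stranded total RNA libraries were made after depletion of ribosomal RNA. The submitters' processing notes name STAR, Partek and GRCg6a. Versions, annotation, counting and strand handling are not given in the sources used here, so overlapping genes are uncertain. The authors deposited CPM with an offset of 0.0001, which was subtracted; columns summed to 303455 to 333242 CPM. In each library 92.86% to 93.63% of low values (up to 200 reads) came out as whole reads to within 0.02, too few to recover counts. Symbols were matched to GRCg7b (15419 of 18631) to name chromosomes only.

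Sex was fitted with treatment in limma 3.58.1 (R 4.3.3; lmFit, eBayes with trend) on log2(CPM + 1), two-sided, with Benjamini-Hochberg adjustment over 14664 genes, HINTW excluded, and a threshold of 0.05. A gene needed 0.1517 to 0.1666 deposited CPM, depending on the library, in 5 libraries. Pair sums replaced their rows in a refit, with intervals on 11 residual degrees of freedom. Libraries of a treatment group differed by 5.62 to 42.1 times counting error (42 pairs, chi-square per degree of freedom), so none were copies. The procedure was tested on simulated data. Named genes were the 10 largest falls and rises with at least 2 CPM on the column sum, the smallest p-value of each bin, tested genes of the W list, up to 4 of each other list, genes near the cluster, and others said to be chosen after their values were seen. A gene that the rule names is not reported here. Genes and lists were chosen with earlier results of these data known. The alternatives were pseudocounts, filters, scalings, variance models, subsets of libraries, other bins and each library left out; the lens libraries alone, the pair sums and the interaction were added after seeing the data. Python 3.11.15 and matplotlib 3.10.9 made tables and figures.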

Additional observations from a re-analysis of the deposited data

Results flagged for a closer look

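Among 114 groups of 5 female or 9 male libraries, examined for the genes named by rule and for library scores of the Z genes, 7 held a library far from the others of its sex, where chance gives about 1 in 20. In females ARRDC3 was 39.8 CPM in control 7 against 25.9 to 29.7 CPM in the others, ZFR was 59.0 CPM in control 4 against 47.4 to 50.7 CPM, and TCF4Z was 2.85 CPM in control 2 against 1.29 to 1.43 CPM. In males HINT1Z was 51.5 CPM in lens 6 against 33.6 to 42.5 CPM, and TXNL1 was 17.3 CPM in lens 1 against 12.7 to 14.7 CPM. Male control 1 was low for ATP5I, with 12.1 CPM against 18.4 to 23.6 CPM, and for RPS6, with 104 CPM against 132 to 159.6 CPM.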

How the results depend on the processing

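The gap between the Z and autosomal medians (-0.41) was -0.51 with a pseudocount of 0.1, -0.26 with 5, -0.34 with any gene above 0 in a library, -0.48 with a mean of at least 10 CPM and -0.37 in lens libraries only; leaving out each library gave -0.42 to -0.39. The gap between the starting and last 10 Mb bin (0.24) was 0.19 with a pseudocount of 0.1, 0.20 with the loosest filter, 0.17 with at least 10 CPM, 0.31 with only the sex term, 0.19 in controls, 0.12 in lens libraries, 0.18 with 5 Mb bins and 0.11 with 9 bins of equal numbers, and 0.19 to 0.28 with a library left out. Z genes called lower (324) were 214 in controls, 135 in lens libraries and 272 to 330 with a library left out; those called higher (4) were 2 with at least 10 CPM, 1 in lens libraries and 4 to 5 with a library left out. Genes called over the table (426) were 192 in lens libraries and 372 to 439 with a library left out. The lens call of EFNA5 (1) was 0 with the loosest filter, median ratio scaling, quantile normalization and males only, and 0 to 1 with a library left out, being lost without control 1, 3, 5, 6 or 7 or lens 1, 2, 3, 4 or 5. The Z shift with lens wear (0.03) was 0.21 with only the treatment term and 0.02 to 0.05 with a library left out. Controls and lens libraries alone have fewer samples; for the rest the cause was not tested. None of the 54 genes named by rule reversed; 5 lost their call in controls and 14 in lens libraries, and SMAD2Z lost its call under a pseudocount of 5, the filter of 7 libraries, the loosest filter and 9 of the 14 omissions of a library.

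No paired analysis was possible because 0 numbers of the sample codes occur in both groups. Sex rests on HINTW, females include 1 lens library, and genes with low levels have understated differences; the floor of 3 counts limits what can be said of genes listed near 0.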
